A study of Rattus norvegicus with 12 samples.

Results

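The 10 genes described here are Erg, Fli1, Ets1, Etv2, Emcn, Cldn5, Vwf, Cd34, Eng and Tal1, taken by gene symbol from a table of 32545 rat genes. They are the ETS factors and companion genes by which endothelial cells, the lining of blood vessels, are usually recognised. They were read in 12 RNA-seq libraries from cultured rat heart cells, in 4 groups of 3 biological replicates. RCF are wild-type, untreated, primary cardiac fibroblasts, the stromal cells of the heart, and served as controls. GS are cells derived from such fibroblasts that were immortalized with viral Sall4 and Gata4 and kept undifferentiated. In GS_diff1, GS cells were grown in CMM, a medium named in the labels for cardiomyocyte differentiation. In GS_diff2 they received CMM together with EGM2, for differentiation to cardiomyocytes and endothelium. All GS-derived groups therefore carry both viral factors and all groups share the cardiac fibroblast origin. The labels used here give neither the promoter of the viruses, nor whether GS is 1 clone, nor GS cultures matched in time to the differentiated ones, so medium and culture time cannot be told apart.

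ETS factors share a DNA-binding domain that reads a GGAA core. Etv2 acts briefly in the embryo to start the endothelial and blood programme, and Erg and Fli1 then hold it in endothelial cells. Ets1 is active in endothelium but also in lymphocytes and in stromal cells. Tal1 is a basic helix-loop-helix factor that binds E-boxes with Tcf3-type partners and, with Lmo2, Ldb1 and a GATA factor, forms the complex that drives blood and endothelial genes. Eng (endoglin) is a co-receptor for BMP9 and TGF-beta ligands and is carried by endothelium as well as by mesenchymal stromal cells and macrophages. Cd34 and Emcn (endomucin) are sialomucins of the endothelial surface, Vwf (von Willebrand factor) is the clotting protein stored in Weibel-Palade bodies, and Cldn5 (claudin 5) seals endothelial tight junctions.

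RefSeq promoters of the GRCr8 rat assembly, from 250 bases before to 50 bases after the start of a gene, were at hand for 6 of the 10 genes, Erg, Emcn, Cldn5, Cd34, Eng and Tal1. Those printed below are Erg, the gene with the widest span between groups, Eng, the most abundant, Tal1, the partner factor, and Emcn, which had no read in any library. Capitals mark the ETS core GGAA, or TTCC where the core lies on the other strand.
Erg (chr11:48251517-48251816, minus strand): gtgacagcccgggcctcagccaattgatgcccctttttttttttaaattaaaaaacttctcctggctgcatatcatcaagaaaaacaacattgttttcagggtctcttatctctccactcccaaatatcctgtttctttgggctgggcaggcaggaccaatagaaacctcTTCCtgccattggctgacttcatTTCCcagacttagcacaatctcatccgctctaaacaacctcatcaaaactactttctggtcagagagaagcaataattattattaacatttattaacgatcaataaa
Eng (chr3:36332029-36332328, plus strand): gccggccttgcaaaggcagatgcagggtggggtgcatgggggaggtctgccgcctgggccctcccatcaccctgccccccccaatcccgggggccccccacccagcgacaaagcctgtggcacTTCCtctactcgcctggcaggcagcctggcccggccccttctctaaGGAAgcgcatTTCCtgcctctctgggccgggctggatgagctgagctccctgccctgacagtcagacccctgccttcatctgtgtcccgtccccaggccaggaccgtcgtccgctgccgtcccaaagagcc
Tal1 (chr5:133824214-133824513, plus strand): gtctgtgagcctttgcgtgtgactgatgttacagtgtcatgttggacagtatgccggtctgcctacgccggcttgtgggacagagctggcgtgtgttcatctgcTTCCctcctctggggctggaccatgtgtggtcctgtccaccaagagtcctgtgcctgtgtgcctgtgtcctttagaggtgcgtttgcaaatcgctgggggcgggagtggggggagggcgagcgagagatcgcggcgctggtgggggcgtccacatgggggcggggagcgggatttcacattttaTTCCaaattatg
Emcn (chr2:228564289-228564588, plus strand): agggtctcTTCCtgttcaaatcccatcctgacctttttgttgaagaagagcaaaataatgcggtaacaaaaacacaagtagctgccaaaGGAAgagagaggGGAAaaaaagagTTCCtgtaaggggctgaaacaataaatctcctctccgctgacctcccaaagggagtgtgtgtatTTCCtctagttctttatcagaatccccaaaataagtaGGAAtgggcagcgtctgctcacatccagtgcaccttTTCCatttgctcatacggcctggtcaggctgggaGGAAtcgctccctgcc
On both strands together the core occurred 2 times in the Erg window, 3 times in Eng, 2 times in Tal1 and 8 times in Emcn, and 1 time each in Cldn5 and Cd34. Of all 33469 rat promoters of this length, 95.8% held at least 1 GGAA, with a median of 3. The longer ETS site CCGGAAG was in none of the 6 windows and in 8.75% of all promoters. The GATA core GATAA was found 1 time each in Erg, Emcn and Cd34, and in 26.5% of all promoters. The E-box CANNTG, the element read by Tal1 and its partners, was found 3 times in Tal1, 2 times in Eng and 1 time each in Erg, Emcn and Cd34, and in 72.1% of all promoters. These matches describe letters in the windows and show no binding.

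Libraries held 16255682 to 23117864 counts, and levels are given as CPM, normalised by library size and TMM factor, with SD over 3 libraries. The targeted genes matched the labels: Sall4 had no count in RCF and stood at 246 ± 8.58 CPM in GS, against 225 ± 4.67 in GS_diff1 and 69.6 ± 2.55 in GS_diff2. Gata4 stood at 206 ± 3.43 CPM in RCF and 595 ± 7.21 in GS, and fell again to 285 ± 3.89 in GS_diff2. Viral and endogenous copies were counted together. Folds and adjusted p-values come from the quasi-likelihood test of edgeR with Benjamini-Hochberg adjustment over the 14399 genes that passed the count filter, with 0.05 as the threshold, and log2 changes carry their standard error. Since the libraries are of whole cultures, fewer cells of a type and less RNA per cell cannot be told apart.

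Of the 10 genes, 6 passed the count filter: Erg, Fli1, Ets1, Vwf, Eng and Tal1. The other 4 were at or near 0 everywhere. Emcn (ENSRNOG00000022910, chr2:242634399-242714182, plus strand, Rnor_6.0) and Cldn5 (ENSRNOG00000045811, chr11:86356294-86357718, minus strand) had 0 counts in all 12 libraries, where 3 counts, the limit that a count of 0 allows, correspond to 0.127 to 0.193 CPM per library. The whole 1425-base span of Cldn5 lies inside Cdc45 on the opposite strand, and how reads shared by both genes were assigned is not given. Cd34 (ENSRNOG00000045558, chr13:113691932-113711647, plus strand) had 1, 1 and 5 counts in the 3 RCF libraries, 0, 2 and 0 in GS, 1, 0 and 0 in GS_diff1, and 0, 1 and 0 in GS_diff2. Etv2 (ENSRNOG00000024288, chr1:89091239-89094530, minus strand) had 2 counts in 1 RCF library and 1 count each in 1 GS and 1 GS_diff1 library, and none in GS_diff2. Both sialomucins of the endothelial surface, the tight-junction claudin and the starter ETS factor were thus not detectable above 5 counts in any library, in GS_diff2 included.

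Among the genes that were read, Eng and Ets1 led in all groups. Per kilobase of gene length, the scale on which genes can be compared, Eng reached 161 CPM per kb in RCF and Ets1 15.2, ahead of Fli1 at 1.49, Tal1 at 0.480 and Vwf at 0.101. In GS, Eng was at 23.8 CPM per kb and Ets1 at 14.8, followed by Fli1 at 2.94, Tal1 at 1.31, Erg at 0.631 and Vwf at 0.155. In GS_diff1 Erg, at 2.53 CPM per kb, ranked above Fli1 at 1.78. In GS_diff2 it was last of the 6, at 0.134, below Vwf at 0.414.

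**Figure D1:**
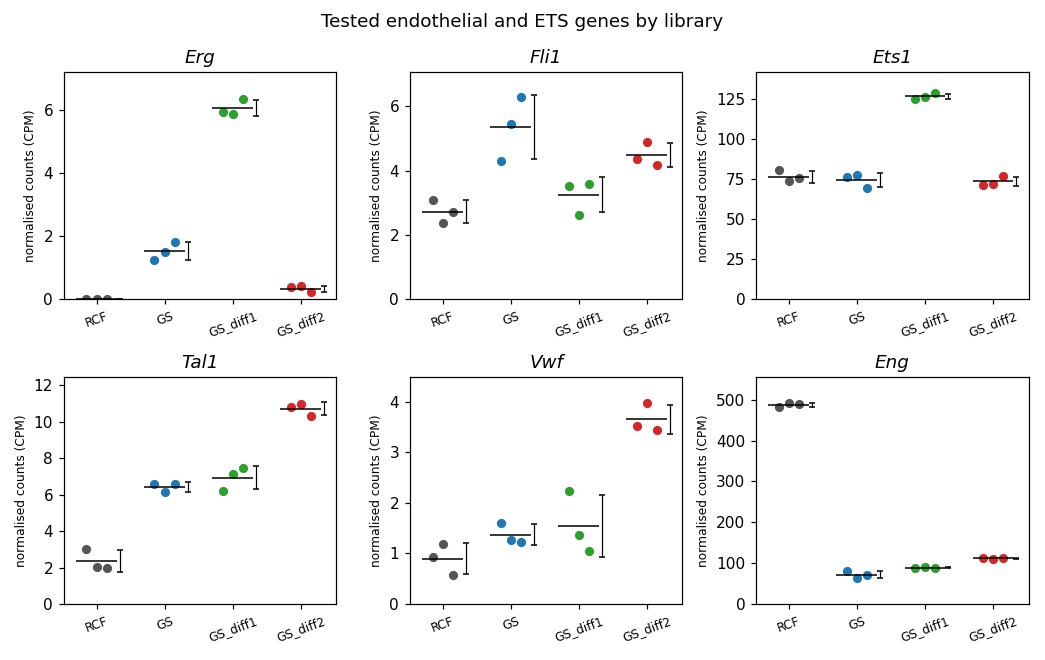
CPM (TMM-scaled, linear axes from 0, 1 panel per gene) in each of the 12 libraries, by group; points are libraries, horizontal lines are group means and the bars beside them are SD. Erg peaks in GS_diff1, Tal1 and Vwf in GS_diff2, and Eng in RCF.

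Erg (ENSRNOG00000001652, chr11:35646116-35749594, minus strand), the endothelial maintenance factor, was the member that separated the 4 groups most widely. It had 0 counts in each RCF library, 27, 26 and 28 counts in GS, 125, 117 and 110 in GS_diff1 and only 7, 9 and 4 in GS_diff2. No library of 1 group overlapped with another group. In CPM the means were 1.52 ± 0.282 in GS, against 6.07 ± 0.263 in GS_diff1 and 0.322 ± 0.0992 in GS_diff2. Erg was at least 10.8-fold higher in GS than in RCF, against a floor of 3 counts per library (edgeR quasi-likelihood test, adjusted p = 8.35e-11). It rose a further 4.02-fold from GS to GS_diff1 (log2 2.01 ± 0.306, adjusted p = 1.83e-06). In GS_diff2 it was 4.57-fold lower than in GS (log2 -2.19 ± 0.372, adjusted p = 8.40e-06). Between the 2 media Erg was therefore 18.4-fold lower with EGM2 (log2 -4.20 ± 0.359, adjusted p = 3.80e-11). Its GS_diff2 level still lay at least 2.29-fold above RCF (adjusted p = 2.10e-06), from single-digit counts.

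Fli1 (ENSRNOG00000008904, chr8:33543258-33661049, minus strand), the close relative of Erg, was read in every library and moved far less. Its counts were 73, 46 and 57 in RCF, 94, 94 and 98 in GS, 74, 52 and 62 in GS_diff1 and 84, 112 and 80 in GS_diff2. In CPM these were 2.71 ± 0.361, 5.35 ± 1.00, 3.24 ± 0.541 and 4.48 ± 0.379 in the same order. Every GS library lay above every RCF library, and Fli1 was 1.96-fold higher in GS (log2 0.97 ± 0.223, adjusted p = 0.000303). It was 1.64-fold lower in GS_diff1 than in GS (log2 -0.72 ± 0.222, adjusted p = 0.00581). In GS_diff2 it did not pass the test against GS (log2 -0.25, adjusted p = 0.314) and remained 1.65-fold above RCF (adjusted p = 0.00497). GS_diff1 did not pass against RCF (adjusted p = 0.313). GS_diff2 against GS_diff1 fell just short, at log2 0.47 and adjusted p = 0.0675, and crossed the threshold with limma-voom, at 0.0450. The GS_diff2 libraries nonetheless all lay above those of GS_diff1. In order of level, no pair of neighbours from GS through GS_diff2 and GS_diff1 to RCF passed the edgeR test.

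Ets1 (ENSRNOG00000008941, chr8:33816386-33879625, plus strand) was the most abundant ETS factor among the members and rose in 1 group. It stood at 80.9, 73.6 and 75.5 CPM in the RCF libraries, 76.4, 77.6 and 69.7 in GS, 126, 126 and 129 in GS_diff1 and 71.6, 72.2 and 76.9 in GS_diff2. GS_diff1 lay above all 9 other libraries, which overlapped with each other. Ets1 was 1.70-fold higher in GS_diff1 than in GS (log2 0.77 ± 0.0489, adjusted p = 1.91e-14) and 1.73-fold lower in GS_diff2 than in GS_diff1 (adjusted p = 8.07e-15). GS against RCF did not pass (log2 -0.04, 95% interval -0.15 to 0.08, adjusted p = 0.494). With library totals in place of TMM factors that difference was -0.14 with an adjusted p of 0.0145. GS_diff2 did not pass against GS either (log2 -0.02, adjusted p = 0.720).

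Tal1 (ENSRNOG00000025051, chr5:133864798-133878830, plus strand), the blood and endothelial helix-loop-helix factor, was higher in GS than in RCF and higher again in GS_diff2. Counts were 72, 40 and 42 in RCF, 144, 106 and 102 in GS, 131, 141 and 129 in GS_diff1 and 209, 251 and 198 in GS_diff2. As CPM the means were 2.36 ± 0.590, 6.44 ± 0.263, 6.94 ± 0.641 and 10.7 ± 0.341. The 3 RCF libraries were the lowest and the 3 GS_diff2 libraries the highest, while GS and GS_diff1 overlapped. Tal1 was 2.71-fold higher in GS than in RCF (log2 1.44 ± 0.182, adjusted p = 3.96e-08). GS_diff1 against GS did not pass (log2 0.11, adjusted p = 0.607). GS_diff2 was 1.67-fold higher than GS (log2 0.74 ± 0.170, adjusted p = 0.000360), 1.55-fold higher than GS_diff1 (adjusted p = 0.00176) and 4.51-fold higher than RCF (adjusted p = 5.75e-12).

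Eng (ENSRNOG00000050190, chr3:11679530-11717485, plus strand), the endoglin co-receptor, was, of the 6 tested members, the 1 highest in the parental fibroblasts. It stood at 481, 491 and 489 CPM in RCF, 81.1, 64.5 and 71.1 in GS, 88.9, 90.9 and 87.6 in GS_diff1 and 113, 110 and 112 in GS_diff2. All 4 groups were separated without overlap. From RCF to GS, Eng was 6.72-fold lower (log2 -2.75 ± 0.0533, adjusted p = 1.88e-20). It was then 1.23-fold higher in GS_diff1 than in GS (adjusted p = 7.55e-05) and 1.54-fold higher in GS_diff2 (log2 0.62 ± 0.0538, adjusted p = 2.47e-09). GS_diff2 exceeded GS_diff1 1.25-fold (adjusted p = 2.07e-05). Both stayed below RCF, by 5.46-fold in GS_diff1 and 4.37-fold in GS_diff2. Of 15 listed leukocyte markers 10 were tested, of which 9 were lower and 1 higher in GS than in RCF. Of all tested genes, 36.3% were lower and 35.0% higher. Tested markers with no count in the GS-derived libraries passed the filter through RCF alone and could only be called lower. The summed level of the list was 112 to 118 CPM in RCF, 23.3 to 27.4 in GS, against 16.7 to 18.1 in GS_diff1 and 32.6 to 34.5 in GS_diff2. The macrophage gene Adgre1 stood at 14.3 ± 0.981 CPM in RCF and at 0 in every GS-derived library, and 8 of the 15 markers were at 0 in GS. Their part in the Eng result was not tested.

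Vwf (ENSRNOG00000019689, chr4:158088505-158219523, plus strand), the Weibel-Palade body cargo, was low throughout and highest in GS_diff2. Its counts were 22, 23 and 12 in RCF, 35, 22 and 19 in GS, 47, 27 and 18 in GS_diff1 and 68, 91 and 66 in GS_diff2. As CPM these were 0.892 ± 0.308, 1.37 ± 0.208, 1.55 ± 0.617 and 3.65 ± 0.291. The 3 GS_diff2 libraries lay above all 9 others. Vwf was 2.65-fold higher in GS_diff2 than in GS (log2 1.41 ± 0.328, adjusted p = 0.000406), 2.34-fold higher than in GS_diff1 (adjusted p = 0.00146) and 4.09-fold higher than in RCF (adjusted p = 4.03e-06). GS against RCF (log2 0.62 ± 0.352, adjusted p = 0.114) and GS_diff1 against GS (log2 0.18, adjusted p = 0.668) did not pass. GS_diff1 was 1.74-fold higher than RCF at an adjusted p of 0.0382, a call that ended under limma-voom, in a fit of these 2 groups alone, and without any of 4 single libraries. The adjusted p was then 0.0548 and 0.0626 for the other fits, 0.0642 without RCF replicate 1, 0.175 without RCF replicate 3, 0.305 without GS_diff1 replicate 1 and 0.0509 without GS_diff2 replicate 2. Megakaryocyte and erythroid markers, which share Vwf and Tal1 with endothelium, summed to 4.07 to 4.48 CPM in RCF, 7.28 to 8.58 in GS, against 6.40 to 7.09 in GS_diff1 and 6.44 to 8.09 in GS_diff2. Of 12 listed, 4 were at 0 in all libraries and 4 were tested, with 3 higher and 1 lower in GS than in RCF. In GS_diff2 against GS, where Vwf and Tal1 rose, 2 of the 4 were higher and 1 lower (median log2 0.90). The 2, chosen after their values were seen, were the erythroid genes Alas2, from 0.225 ± 0.129 to 1.52 ± 0.129 CPM, and Epor, from 1.49 ± 0.418 to 3.06 ± 0.541, while Klf1 fell from 5.48 ± 0.391 to 1.79 ± 0.193. The Epor call (edgeR adjusted p = 0.0125) ended without GS replicate 2 (0.0558) or GS_diff2 replicate 3 (0.0520). The part of these markers in the Vwf and Tal1 results was not tested.

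**Figure D2:**
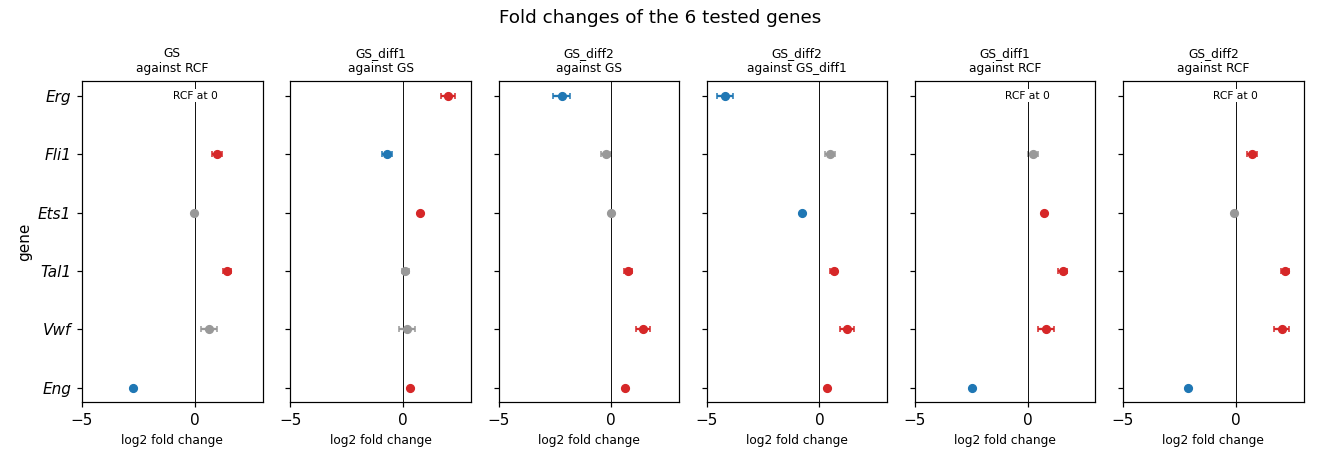
Log2 fold change of the 6 tested members in each comparison, with bars of 1 standard error; red is called higher, blue is called lower and grey is not called at an adjusted p of 0.05 (edgeR quasi-likelihood test). Erg has no finite fold against RCF, where it had no count; its sign turns between GS_diff1 and GS_diff2, each against GS.

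Counted against the whole table, the members were called about as often as genes in general. In GS against RCF, 3 of the 6 tested were higher and 1 lower, where 71.3% of all tested genes were called, 35.0% as higher and 36.3% as lower. In GS_diff1 against GS, 3 rose and 1 fell, beside 64.3% of all genes (32.0% higher, 32.3% lower). In GS_diff2 against GS it was again 3 and 1, beside 67.0% (33.3% and 33.7%), and in GS_diff2 against GS_diff1 3 and 2, beside 63.7% (32.1% and 31.5%). The differentiated groups against RCF gave 4 higher and 1 lower each, beside 75.4% for GS_diff1 (38.0% and 37.4%) and 72.5% for GS_diff2 (37.1% and 35.4%). A share near the background is no result about the members as a set, and Erg passed the filter only through the GS-derived groups. The counts of the gene lists in this text are to be read beside the same shares. The comparisons share the GS or the RCF libraries, so their counts are not independent. Each call differed in which members it held: Erg, Ets1 and Eng rose and Fli1 fell in GS_diff1, whereas Tal1, Vwf and Eng rose and Erg fell in GS_diff2.

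The rest of the ETS family was read from 23 further genes, of which 18 were tested. In GS against RCF 11 were higher and 3 lower, beside 35.0% and 36.3% of all tested genes. Elf3, Ehf and Spdef passed the filter only through the GS-derived groups, so against RCF they could not be called lower. The counts were 5 and 9 in GS_diff1 against GS, 8 and 6 in GS_diff2 against GS, and 7 and 7 in GS_diff2 against GS_diff1. In the same order, the median log2 changes of the 18 genes were 0.41, -0.26, 0.16 and 0.08. Medians of all genes lay between -0.03 and 0.00. Summed over all 27 family genes, the level was 168 ± 1.62 CPM per kb in RCF, 233 ± 3.22 in GS, against 229 ± 4.19 in GS_diff1 and 253 ± 0.375 in GS_diff2. Erg and Fli1 made up little of it. Elf1, a broadly expressed factor, led in RCF, GS and GS_diff1 at 21.3, 42.1 and 34.9 CPM per kb, and Elk3, a serum response partner, in GS_diff2 at 51.1.

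Erg and Ets2 lie on chromosome 11 on opposite strands, transcribed away from each other, with no protein-coding gene in the 326 kb between them. Ets2 rose 3.08-fold from RCF to GS, from 28.3 ± 2.33 to 87.5 ± 2.43 CPM (adjusted p = 9.42e-21), and was 3.40-fold lower again in GS_diff2 (adjusted p = 2.24e-21). In GS_diff1, where Erg rose, Ets2 did not pass the test, at 85.9 ± 1.31 CPM (adjusted p = 0.698). Fli1 and Ets1 are neighbours in the same arrangement on chromosome 8, 155 kb apart, and in GS_diff1 against GS the one fell while the other rose. The PEA3 factors Etv1 and Etv4, targets and effectors of FGF signalling, moved opposite to Erg between the GS-derived groups, though Etv1, like Erg, was higher in GS than in RCF (2.17-fold, adjusted p = 2.32e-07). Etv4 stood at 6.26 ± 1.52 CPM in GS, against 2.48 ± 0.316 in GS_diff1 and 43.8 ± 0.609 in GS_diff2, 17.6-fold higher with EGM2 than without (adjusted p = 5.05e-21). Etv1 stood at 7.70 ± 0.970, 2.36 ± 0.439 and 24.5 ± 1.85 CPM, a 10.3-fold difference between the media (adjusted p = 2.10e-17). Etv5, the other PEA3 factor, which was chosen after its values were seen, rose 2.34-fold from GS to GS_diff2 (adjusted p = 4.45e-11). Elk3 rose 2.45-fold in GS_diff2 (adjusted p = 2.20e-20), to 195 ± 3.12 CPM. The epithelial factor Elf3, at 0 in RCF, was at least 109-fold higher in GS (adjusted p = 4.40e-22), at 15.4 ± 0.858 CPM, and the repressor Erf rose 1.78-fold in GS_diff1 (adjusted p = 4.26e-13).

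**Figure D3:**
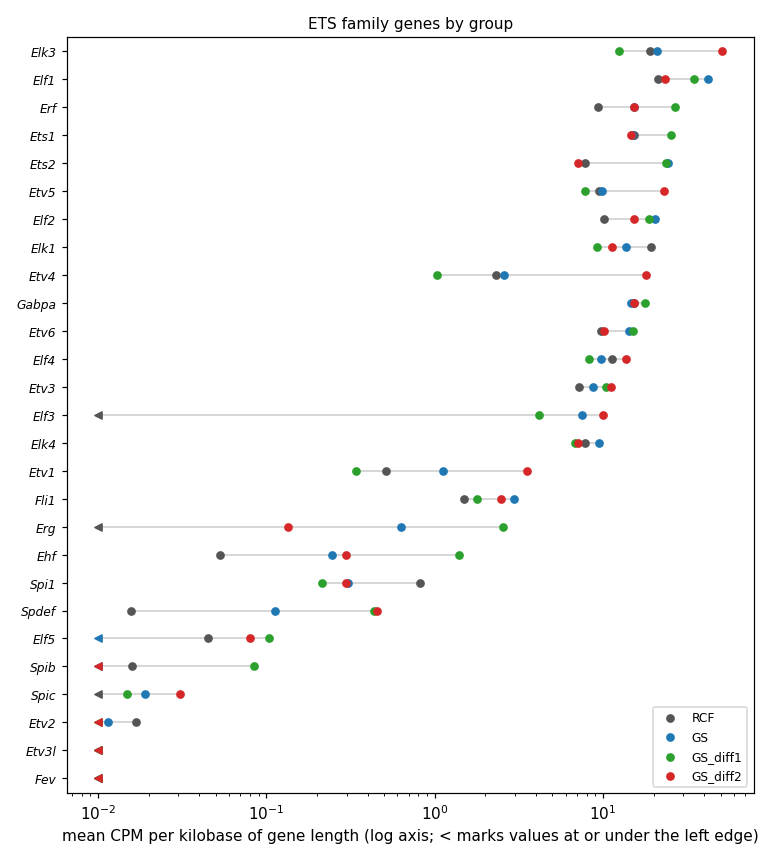
Group means of the ETS family genes in CPM per kilobase of gene length (log axis; left-pointing markers stand at the axis floor). Elf1 leads in RCF, GS and GS_diff1 and Elk3 in GS_diff2, while Erg and Fli1 lie well below Ets1.

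Partners of Tal1 were called in both directions, as were all tested genes. Gata1 and Tal2 were not tested. They had no count in RCF, and Tal2 none in GS_diff2. Elsewhere Gata1 had at most 3 counts in a library and Tal2 at most 6. Of 10 listed genes of the Tal1 complex, 8 were tested. In GS against RCF 5 were higher and 3 lower, beside 35.0% and 36.3% of all tested genes. GS_diff1 against GS gave 3 and 4, beside 32.0% and 32.3%. GS_diff2 against GS gave 1 and 4, beside 33.3% and 33.7%. GS_diff2 against GS_diff1 gave 2 and 6, beside 32.1% and 31.5%. Gata2, the GATA factor of blood and endothelial progenitors, went from 5.33 ± 0.880 CPM in RCF to 24.9 ± 2.52 in GS (4.66-fold, adjusted p = 9.97e-17). It was 1.75-fold lower in GS_diff1 than in GS (adjusted p = 1.12e-07) and 1.28-fold higher in GS_diff2 (adjusted p = 0.0027), where Tal1 was also highest. Lmo2, the bridging protein of the complex, peaked elsewhere, at 7.82 ± 0.661 CPM in GS_diff1 against 2.63 ± 0.559 in GS_diff2, 2.98-fold lower (adjusted p = 0.000123). Its differences from GS were fragile: 1.78-fold higher in GS_diff1 (adjusted p = 0.0187, 0.0876 without GS replicate 2 and 0.0553 without GS_diff1 replicate 1), and 1.67-fold lower in GS_diff2 (adjusted p = 0.0401). The second call ended with library totals (0.0674) and without GS replicate 1 (0.128) or 3 (0.159), GS_diff1 replicate 1 or 2 (0.0504 each), or GS_diff2 replicate 2 (0.150) or 3 (0.101). The helix-loop-helix partner Tcf3 rose 1.84-fold in GS over RCF, to 147 ± 5.46 CPM (adjusted p = 6.28e-18), and the adaptor Ldb1 was 1.31-fold lower (adjusted p = 4.73e-09).

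Of the genes that work with Eng, the endoglin receptor pathway, 15 were tested of 19 in the table. In GS against RCF 11 were lower and 3 higher, beside 36.3% and 35.0% of all tested genes. The list's median log2 change was -0.30, beside -0.03 over all genes. Acvrl1 (ALK1), the type I receptor that pairs with endoglin, fell from 49.0 ± 2.18 CPM in RCF to 11.9 ± 1.29 in GS (4.10-fold, adjusted p = 2.16e-16). Unlike Eng, it went on falling, to 5.19 ± 0.664 in GS_diff1 and 2.77 ± 0.502 in GS_diff2, each called against GS (adjusted p = 7.45e-10 and 1.03e-14). The ligand Tgfb3 fell 4.40-fold in GS (adjusted p = 1.41e-27) and the inhibitory Smad6 2.44-fold (adjusted p = 3.27e-14). The remaining comparisons gave 2 higher and 10 lower in GS_diff1 against GS, 4 and 10 in GS_diff2 against GS, and 8 and 5 in GS_diff2 against GS_diff1. Among the target genes of the pathway, Id1 was 2.53-fold higher (adjusted p = 2.04e-22) and Id3 2.56-fold higher (adjusted p = 1.77e-22) in GS_diff2 than in GS_diff1.

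**Figure D4:**
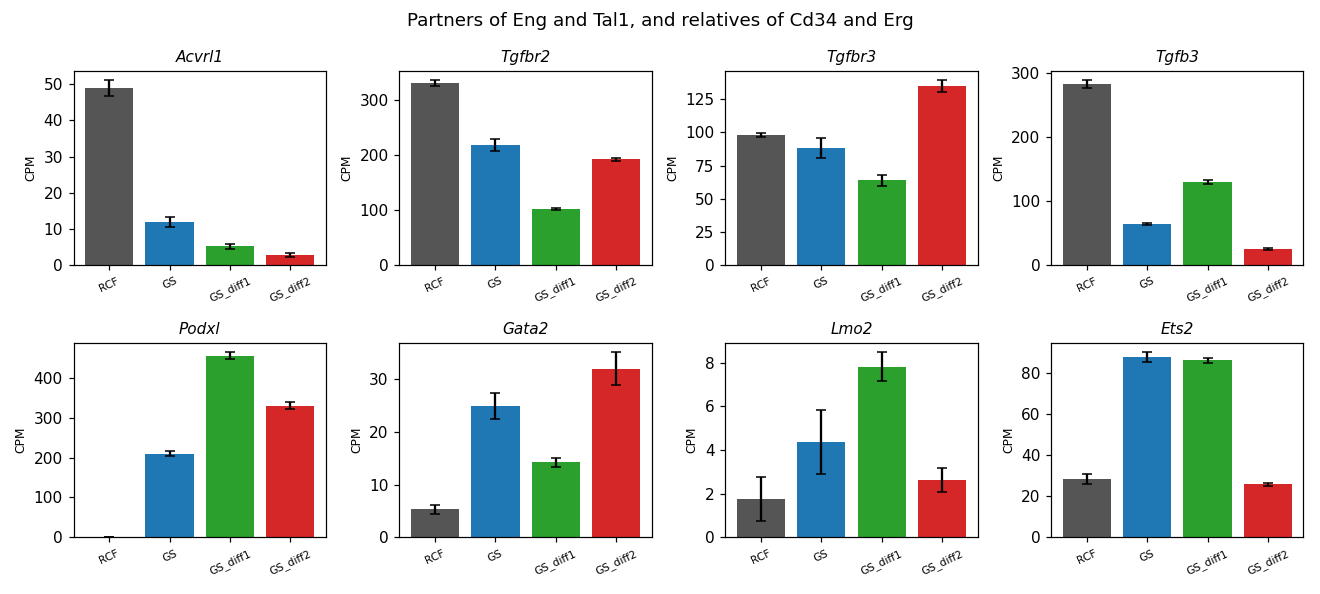
Group means with SD over 3 libraries (CPM) of partners of Eng and Tal1 and of relatives of Cd34 and Erg. Acvrl1 falls from RCF through GS_diff2, whereas Gata2 is highest in GS_diff2 and Podxl in GS_diff1.

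Relatives of Cd34, Emcn and Cldn5 were read where those genes were not. Of the sialomucins other than Cd34 and Emcn, 6 of 8 were tested, with 3 higher and 1 lower in GS against RCF, 2 and 2 in GS_diff1 against GS, 3 and 1 in GS_diff2 against GS, and 4 and 1 in GS_diff2 against GS_diff1. Podxl (podocalyxin), the CD34-family sialomucin of podocytes, endothelium and pluripotent cells, went from 0.433 ± 0.0912 CPM in RCF to 210 ± 6.03 in GS (adjusted p = 4.55e-37). It reached 457 ± 8.19 in GS_diff1, 2.18-fold above GS (adjusted p = 1.45e-22). In GS_diff2 it stood at 331 ± 8.58, 1.38-fold lower than in GS_diff1 (adjusted p = 2.01e-13) but higher than in GS (log2 0.66). Podxl, with 7 to 12 counts in RCF, passed the filter only through the GS-derived groups. Against RCF it could only be called higher. Spn (CD43), a leukocyte sialomucin, rose 15.9-fold in GS (adjusted p = 2.13e-21). Of the claudins other than Cldn5, 9 of 21 were tested. In GS against RCF 6 were higher and 1 lower, beside 35.0% and 36.3% of all tested genes. Cldn4, Cldn6, Cldn7, Cldn10, Cldn11 and Cldn23 passed the filter only through the GS-derived groups, so against RCF they could only be called higher. Cldn3 passed only through RCF and in GS could only be called lower. These counts were thus largely set by the filter. The counts were 5 and 2 in GS_diff1 against GS, 2 and 6 in GS_diff2 against GS, and 2 and 4 in GS_diff2 against GS_diff1. Cldn6, a claudin of embryonic epithelium, had no count in RCF and stood at 79.3 ± 3.67 CPM in GS, at least 563-fold higher (adjusted p = 1.96e-29). It was 1.32-fold higher again in GS_diff1 (adjusted p = 3.76e-07) and 2.07-fold lower in GS_diff2 than in GS (adjusted p = 2.79e-15). Cldn7, an epithelial claudin, was at least 103-fold higher in GS (adjusted p = 1.34e-19).

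Of genes that build or release Weibel-Palade bodies, 13 were in the data and 10 were tested. In GS against RCF 2 were higher and 8 lower, beside 35.0% and 36.3% of all tested genes. The list's median log2 change was -0.31, beside -0.03 over all genes. The counts were 2 and 4 in GS_diff1 against GS, 5 and 2 in GS_diff2 against GS, and 5 and 2 in GS_diff2 against GS_diff1. Cd63, a membrane protein of these bodies and of lysosomes, stood at 1635 ± 20.7 CPM in RCF and 748 ± 11.0 in GS, 2.18-fold lower (adjusted p = 3.60e-25). It was 2.38-fold higher in GS_diff2 than in GS_diff1 (adjusted p = 6.54e-26). Rab27a, a GTPase of secretory granules, was 2.38-fold higher in GS than in RCF (adjusted p = 3.34e-15).

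Beyond the members, most defining endothelial genes had at least a few counts, and 2 of them, Robo4 and Sele, chosen after their values were seen, were at 0 in all 12 libraries. Of 27 genes in the data, 18 were tested, with 4 higher and 6 lower in GS against RCF, 6 and 4 in GS_diff1 against GS, 9 and 2 in GS_diff2 against GS, and 5 and 5 in GS_diff2 against GS_diff1. Pecam1 was not analysed here. Cdh5 (VE-cadherin), the endothelial adherens junction protein, had at most 8 counts in a library and none in GS_diff1. Kdr (VEGF receptor 2) had 6 to 18 counts per library in RCF, none in GS and at most 4 in the differentiated groups. Flt1 (VEGF receptor 1), by contrast, stood at 14.4 ± 0.381 CPM in RCF and 354 ± 21.1 in GS, 24.6-fold higher (adjusted p = 6.18e-35), and was 1.32-fold lower in GS_diff2 than in GS (adjusted p = 3.82e-11). The angiopoietin receptor Tek lay between 12.2 and 16.1 CPM in group means and was 1.32-fold higher in GS_diff1 than in GS (adjusted p = 0.0078, 0.116 without GS_diff1 replicate 2). Its relative Tie1 was 2.82-fold higher in GS_diff1 than in GS, as Erg was, from at most 48 counts in a library (adjusted p = 0.00603, 0.0501 without GS replicate 1). In GS_diff2 against GS, the 3 largest rises with at least 5 CPM in this list were those of Gja4, Notch4 and Efnb2. Gja4 (connexin 37) stood at 0.216 ± 0.0811 CPM in GS and 10.9 ± 0.847 in GS_diff2 (adjusted p = 6.54e-15). It had at most 6 counts in a library of any other group. Gja4 thus passed the filter only through GS_diff2 and could only be called higher there. Notch4 rose 3.24-fold (adjusted p = 1.08e-06) and the ephrin Efnb2 1.68-fold (adjusted p = 1.80e-11). In GS_diff2, the group labelled for endothelial differentiation, Cldn5 and Emcn were at 0, Cdh5, Kdr and Cd34 had 3 counts or fewer per library and Erg had 4 to 9.

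**Figure D5:**
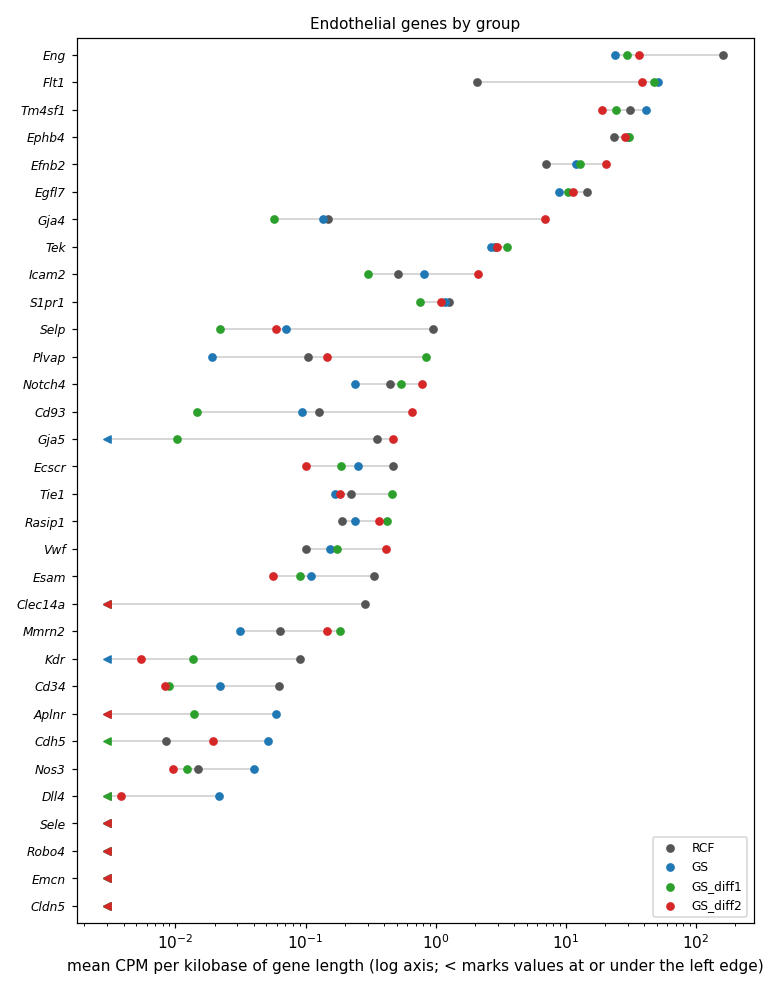
Group means of defining endothelial genes in CPM per kilobase of gene length (log axis; left-pointing markers stand at the axis floor). Flt1 is far higher in the 3 GS-derived groups than in RCF, Gja4 is raised in GS_diff2, and Cdh5 and Kdr lie near the floor.

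For the 5 members with at least 5 CPM in some group, the genes with the most similar log2 CPM over the 12 libraries were ranked by Pearson's r among 11489 candidates. The libraries fall into 4 groups of 3, so r describes mainly the group means. Erg was most like Svil (0.996), Hsf2 (0.994) and Ptpn14 (0.993). Svil ran at 58.2 CPM in RCF, 122 in GS, against 168 in GS_diff1 and 84.9 in GS_diff2, the same order of groups as Erg over a much smaller range. Fli1 had looser matches, LOC689899 (0.964), Pla2g5 (0.923) and Entpd2 (0.920). Ets1 was matched by Noc2l (0.990), Chd1 (0.986) and Pitpnm2 (0.985), all highest in GS_diff1. Eng was matched by Hid1 (0.997), Ahi1 (0.995) and Cndp2 (0.995), all highest in RCF. Tal1 was matched by Spns2 (0.994), which went from 0.945 CPM in RCF to 24.6 in GS_diff2, Arhgef25 (0.992) and Plaur (0.986).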

How the data were processed

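Per the labels' protocols, RNeasy total RNA was amplified with Ovation RNA-seq System v2. The authors deposited raw read counts per gene for 12 libraries, and all sample columns were used (0 left out). The submitters' processing notes name Bowtie 0.12.2, Rnor_6.0 and mm8 without roles; which program counted, and whether by strand, is not given in the sources used here, so overlapping genes cannot be separated. Positions are the table's, in Rnor_6.0.

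Counts were fitted in edgeR 4.0.16 (R 4.3.3) with TMM factors, filterByExpr (14399 genes tested, 18146 not) and 1 robust quasi-likelihood fit of all 12 libraries, with group as the term. Contrasts were two-sided and Benjamini-Hochberg adjusted at 0.05. Folds against a group at 0 take 3 counts in each library as the floor, a bound on counting error alone. Alternatives included limma 3.58.1, DESeq2 1.42.0, other scaling and filters, a replicate block and leaving out each library. Tests were checked on simulated counts. Squared differences within replicate pairs were on average 4.44 to 7.57 times those of sampling noise alone (chi-square per degree of freedom).

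The 10 members and 13 gene lists were chosen with earlier results of these data known. Of each list, up to 3 called genes per direction and comparison with at least 5 CPM in the higher group could be named. Pecam1, Cdh5, Kdr, Flt1, Tek and Tie1 were added and, as a label check, Sall4 and Gata4. A gene so named is also given in other comparisons. Further genes are named where the filter limited their calls. Promoters are from RefSeq (GRCr8).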

Additional observations from a re-analysis of the deposited data

How the results depend on the processing

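The counts of genes and of members called, 228 values over all comparisons and alternatives, each stayed within 1.5 times of the main fit. Of 683 alternative member values, 670 kept direction and side of the threshold. Those that turned direction were not called: Ets1 in GS against RCF was -0.0677 to 0.00889 with single libraries left out (above 0 without RCF replicate 1 or GS replicate 3), Ets1 in GS_diff2 against GS was 0.0628 with library totals and -0.0689 to 0.00604 with libraries left out (above 0 without GS replicate 2), and Vwf in GS_diff1 against GS was -0.187 to 0.389 with libraries left out (below 0 without GS_diff1 replicate 1). Ets2 in GS_diff1 against GS, also not called, was 0.0354 with library totals. Vwf in GS_diff1 against RCF ranged over log2 0.44 to 0.84 in the 6 settings that ended its call. The cause was not tested. Library totals moved the median of all genes in GS against RCF from -0.03 to -0.13, and the share of calls that were higher from 49.1% to 42.1%.

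Replicate numbers shared by groups did not pair the libraries: same-number deviations correlated at -0.045 to 0.076 in 18 pairs, none over 0.1, and 15 of 36 best matches had their own number. With the replicate as a block, 10166 genes were called in GS against RCF in place of 10262, with 4 members called in each fit. Lmo2 in GS_diff2 against GS lost its call with the block (adjusted p = 0.0750). Emcn, Cd34 and Etv2 were at or near 0 at this depth, the 0 of Cldn5 may also depend on how reads shared with Cdc45 were assigned, and Erg in GS_diff2 and Vwf rest on few counts.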

Other observations

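Of 16 endothelial transcription factors outside the ETS family in the table, 13 were tested. In GS against RCF 11 were higher and 2 lower, beside 35.0% and 36.3% of all tested genes. In GS_diff2 against GS 1 was higher and 8 lower, beside 33.3% and 33.7%. The list's median log2 changes in these comparisons were 1.38 and -0.96, beside -0.03 and -0.0002 over all genes. The counts were 3 and 6 in GS_diff1 against GS and 3 and 7 in GS_diff2 against GS_diff1. Sox17, an arterial and endodermal factor, had no count in RCF and 710 ± 12.9 CPM in GS, at least 5040-fold higher (edgeR adjusted p = 7.30e-38). Klf2, the flow-responsive factor, was lower in all GS-derived groups, at 95.5 ± 1.41 CPM in RCF, 72.7 ± 3.82 in GS, 21.7 ± 0.324 for GS_diff1 and 10.7 ± 0.230 for GS_diff2. Sox7, a relative of Sox17, stood at 0.113 ± 0.119 CPM in RCF and 66.3 ± 3.68 in GS. Sox17, Sox7, Hhex and Meox2 passed the filter only through the GS-derived groups, so a call of lower than RCF was not open to them. Foxf1 passed only through RCF, so a call of higher than RCF was not open to it. Hhex, a haemato-endothelial and liver homeobox factor, stood at 0.387 ± 0.225 CPM in RCF and 4.73 ± 0.576 in GS, and was 2.31-fold higher in GS_diff1 than in GS (adjusted p = 3.62e-05) and 3.15-fold lower in GS_diff2 than in GS_diff1 (adjusted p = 3.40e-07).

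Of 4 tested lymphatic and sinusoidal markers, of 7, 1 was higher and 1 lower in GS against RCF. In GS_diff1 against GS it was again 1 and 1. In GS_diff2 against GS it was 3 and 0, beside 33.3% and 33.7% of all tested genes. GS_diff2 against GS_diff1 also gave 3 and 0, beside 32.1% and 31.5%. Lyve1 passed the filter only through GS_diff2, so in comparisons of that group it could only be called higher. The podoplanin gene Pdpn stood at 222 ± 4.41 CPM in RCF, 437 ± 14.5 in GS, against 469 ± 18.5 in GS_diff1 and 658 ± 15.1 in GS_diff2. Pericyte markers gave 4 higher and 3 lower of 7 tested in GS against RCF, 1 and 5 in GS_diff1 against GS, 3 and 3 in GS_diff2 against GS, and 4 and 3 in GS_diff2 against GS_diff1. Among them Abcc9, a potassium channel subunit of mural cells, was at 19.3 ± 2.92 CPM in GS, against 0.604 ± 0.287 in GS_diff1 and 73.4 ± 4.13 in GS_diff2. In GS_diff2 against GS, Kcnj8 (log2 3.04), Abcc9 (1.93) and Cspg4 (0.40) were the pericyte markers called higher. Pdgfrb (-3.58), Mcam (-1.14) and Anpep (-0.36) were those called lower. Fibroblast markers, all 12 tested, gave 5 higher and 6 lower in GS against RCF, 2 and 8 in GS_diff1 against GS, 1 and 8 in GS_diff2 against GS, and 5 and 5 in GS_diff2 against GS_diff1.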
